A study of Mus musculus with 6 samples.

Results

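Interferon-stimulated genes and the genes of antigen presentation on major histocompatibility complex (MHC) class I were followed in cultured mouse sensory neurons. The group comprises 45 genes, taken by symbol from a list of sensors of viral RNA, interferon transcription factors, antiviral effectors and components of MHC class I presentation. All 45 were found among the 35976 genes listed in each count table, and all 45 passed the low-count filter that kept 18277 genes for testing. No rule on measured values picked them, but they were chosen with earlier results of these data known. RNA sequencing was performed on dorsal root ganglion (DRG) cells from C57BL/6 mice of both sexes, 2 to 3 months old, which were plated for 24 h and then kept for another 24 h with vehicle or with 15 µg/mL HC-HA/PTX3. HC-HA/PTX3 is a matrix component from human amniotic membrane, in which hyaluronan carries a heavy chain of inter-alpha-trypsin inhibitor and is bound to pentraxin 3. There were 3 vehicle and 3 treated cultures, numbered 1 to 3 in each group. Both groups shared a serum-containing medium with added growth factors, no interferon was among the stated additions, and the cultures were dissociated ganglia that can hold cells other than neurons.

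The vehicle libraries 1, 2 and 3 held 42516054, 42617496 and 54117547 counts, and the HC-HA/PTX3 libraries held 37998071, 37434266 and 38420247. Values below follow this order of replicate numbers. Levels are given in CPM, library-scaled counts, after scaling by edgeR's trimmed mean of M-values. With these libraries 1 CPM stood for 37.1 to 56.0 counts, and a count of 0 leaves room for 3 counts, which is 0.0808 CPM in the smallest scaled library. These limits cover counting error only. The 45 genes together took 0.252, 0.224 and 0.125% of the counts of the vehicle cultures and 0.224, 0.200 and 0.121% of those of the treated cultures.

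Type I interferons bind a receptor of paired chains, whose kinases JAK1 and TYK2 phosphorylate STAT factors. The complex ISGF3, with STAT2 and IRF9 among its subunits, binds interferon-stimulated response elements (ISRE) and turns on antiviral genes, whereas interferon gamma acts mainly through gamma-activated sequences (GAS). Many of these genes are transcribed at a low tonic level without infection, sensory neurons carry receptors for type I interferons, and MHC class I molecules present peptides from the cell's interior to T cells.

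The comparison asked how the genes differed after 24 h of HC-HA/PTX3. Levels were compared within same-numbered replicates by edgeR's quasi-likelihood test, with the replicate number as a block and Benjamini-Hochberg adjustment over all 18277 genes. A gene was called when its adjusted p-value was under 0.05 and it differed by more than 0.5 on the log2 scale in either direction, and all fold changes are HC-HA/PTX3 over vehicle. Of the 45 genes, 8 were called lower (Isg15, Ifit1, Oas2, Rtp4, Stat2, Usp18, Dhx58 and Parp9), where 5.38% of all tested genes were called lower. None of the 45 was called higher by this test, where 3.32% of all tested genes were. At an unadjusted p-value under 0.05, 6 of the 45 were higher, near the 14.5% of all tested genes, and 19 were lower, against 18.7%. DESeq2 and limma-voom with the same block also called 0 of them higher. In the fits below that leave out a single culture, the block also takes its partner out of the treatment difference. Such a fit rests on the other pairs, so leaving out either culture of a number gives nearly the same fold changes. These fits show dependence on pairs, not on single cultures.

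By the adjusted p-value alone, 19 of the 45 genes fell (11.5% of all tested genes) and 4 rose (7.67% of all tested genes). The 4 were Trim25, Ifi35, H2-K1 and H2-D1, and the other 22 passed in neither direction. The treated culture was the lower one in all 3 pairs for 24 genes, against 28.7% of all tested genes, and the higher one in all 3 pairs for 6, against 25.2%. The median log2 fold change of the 45 genes was -0.23, against -0.01 over all tested genes. Pair by pair, the median log2 difference of the 45 genes was -0.27, -0.31 and -0.06 in pairs 1, 2 and 3, with the treated culture lower for 33, 38 and 26 of them. Over all tested genes the medians of the pairs were -0.01, -0.02 and -0.00, and 50.9, 53.8 and 50.1% of genes were lower. The median was thus nearest to 0 in the third pair, although the called genes Isg15, Dhx58, Oas2 and Parp9 fell most in that pair. With treatment as the only term, edgeR called 0 of the 18277 genes, with a smallest adjusted p-value of 0.0581. In that fit 2089 genes (11.4%), 2 of the 45 among them (Trim25 and Irf9), had an unadjusted p-value under 0.05. With the block, DESeq2 called 11 of the 45 and limma-voom 9.

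**Figure D1:**
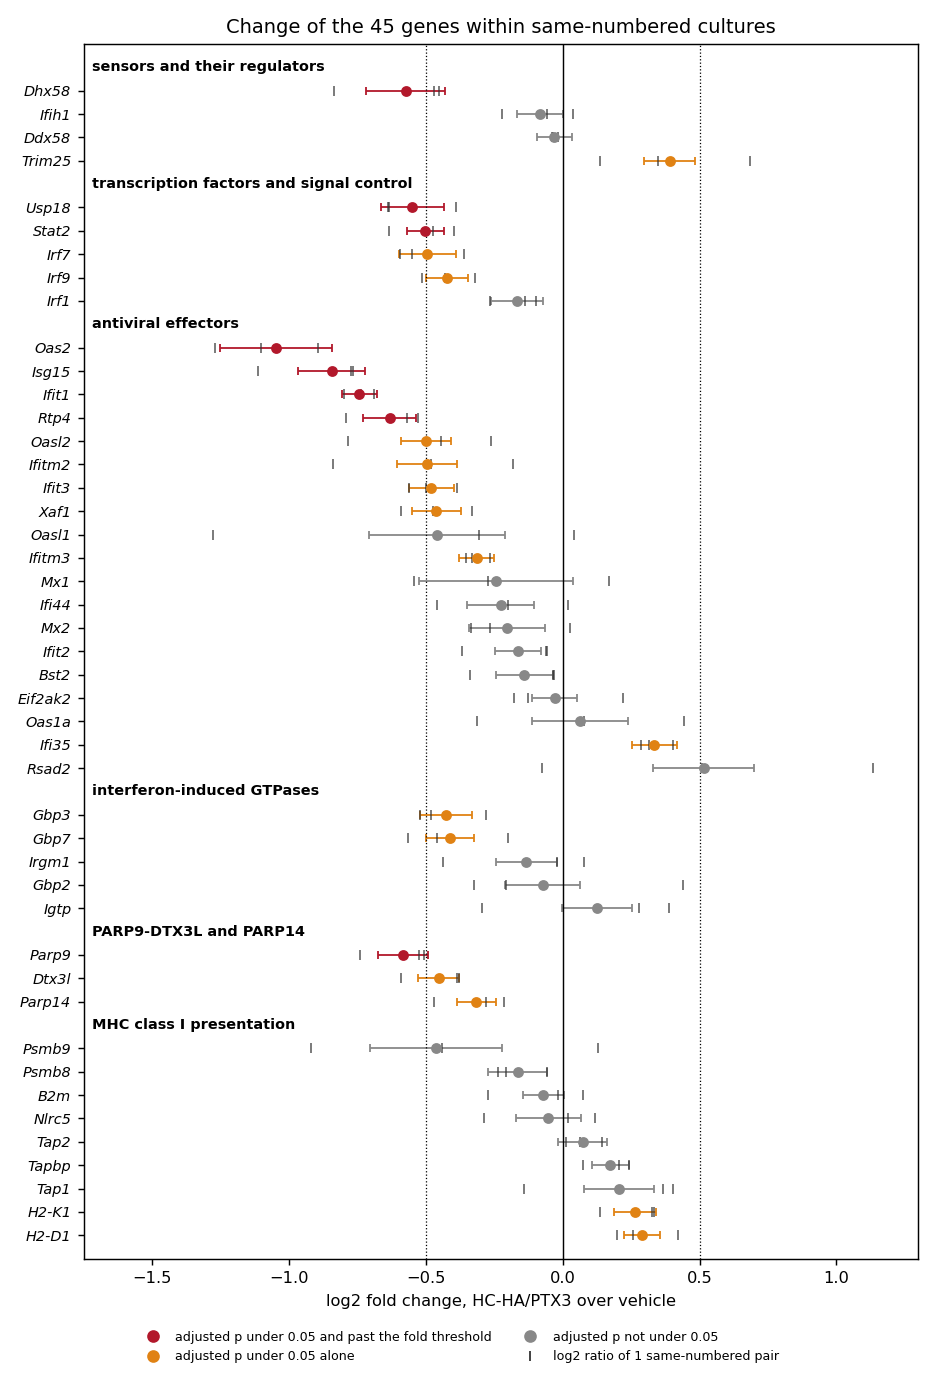
Log2 fold change of each of the 45 genes, HC-HA/PTX3 over vehicle within same-numbered replicates, grouped by role. Points are edgeR estimates, with standard errors worked out from the test statistic. Vertical ticks are the 3 pairs, and dotted lines mark the fold threshold. The 8 called genes in red lie below -0.5, while the estimates of the 9 genes of MHC class I presentation lie on both sides of 0 within the thresholds.

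Larger differences ran between the replicate numbers than between the treatments. All 45 genes were lower in vehicle replicate 3 than in vehicle replicates 1 and 2, and for 42 of them both replicates numbered 3 were the lowest of their group, as was the case for 5100 of the 18277 tested genes. The summed level of the 45 genes was 2673, 2224 and 1208 CPM in the vehicle cultures and 2295, 1976 and 1178 CPM in the treated cultures. Replicate 3 thus stood at 49.3% of the mean of replicates 1 and 2 in the vehicle group and at 55.2% in the treated group. Within pairs the treated sum was 85.8, 88.8 and 97.5% of the vehicle sum, so the groups overlapped widely in these sums. The edgeR test of the replicate number passed an adjusted p-value of 0.05 in 39 of the 45 genes, against 33.8% of all tested genes. The 6 others were Trim25, Irf9, Mx1, Oas1a, Oasl1 and Igtp. Of the variation of log2 CPM of the 45 genes, 88.0% lay between replicate numbers, 9.73% between treatments and 2.30% in the remainder, where all tested genes had 63.7, 24.1 and 12.2%. On the first principal component of the 45 genes, which held 91.5% of their variance, 93.9% of the spread of scores lay between replicate numbers. The labels give no batch or culture date, so what the cultures of 1 number share cannot be told apart from the number itself. In these bulk cultures, fewer cells of a type and less RNA per cell cannot be told apart either.

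The difference between replicate numbers was unequal among the genes. Isg15 in replicate 3 stood at 15.7% of the mean of the other vehicle cultures and at 12.4% of that of the other treated cultures. For Ifit3 these shares were 16.4 and 16.0%, for Gbp2 16.9 and 27.7%, and for Parp14 25.6 and 21.98%. At the other end, H2-D1 kept 80.5 and 77.3%, Irf9 87.3 and 79.4%, and Trim25 77.4 and 105%. These 7 genes were chosen after their values were seen.

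**Figure D2:**
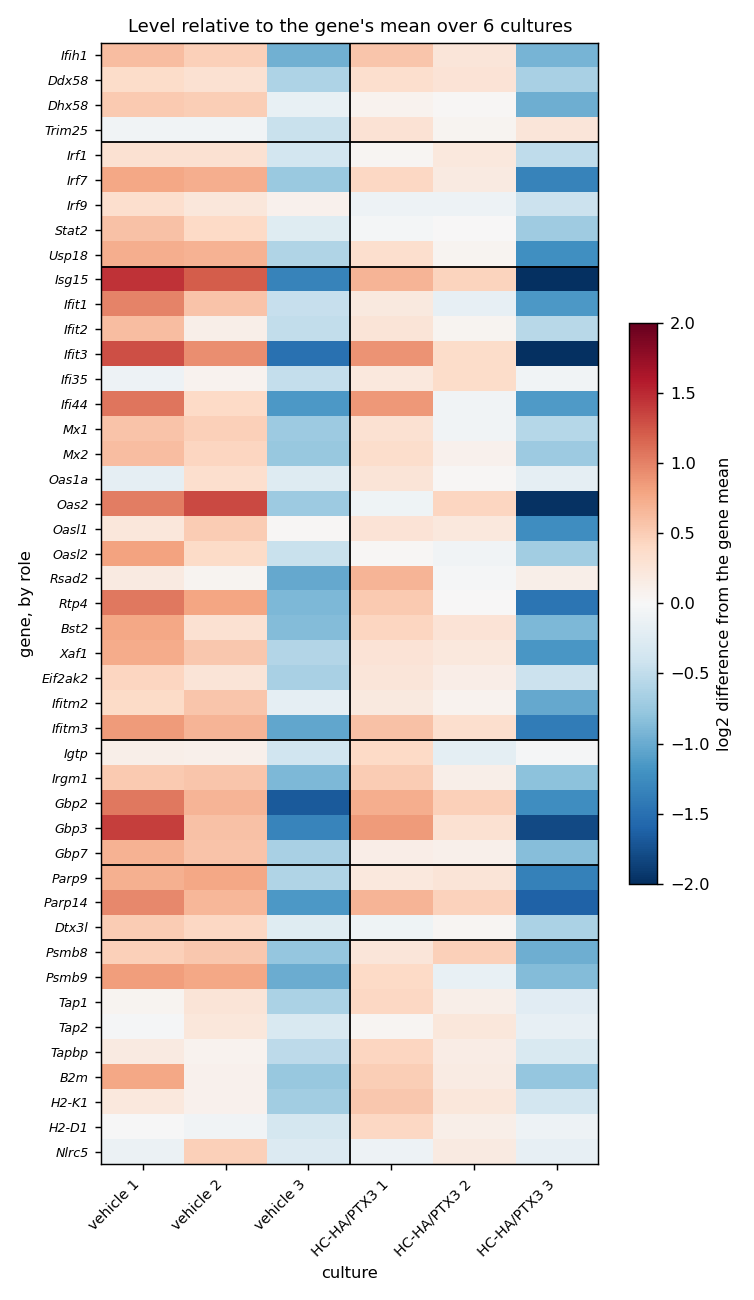
Log2 CPM of the 45 genes in the 6 cultures, each gene centred on its mean over the cultures, with colours that saturate at -2 and 2 and horizontal lines between roles. For 42 of the 45 genes, replicate 3 is the lowest culture in both groups.

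The promoters of these genes are shown because the group is defined by interferon control. Whether promoter letters relate to the differences between cultures was not tested. Windows from 250 bases before to 50 bases after the start site were taken from RefSeq (GRCm38.p6) and matched 35 of the 45 genes by symbol. No promoter window was matched for Oas2, Usp18, Mx1, Mx2, Dhx58, Parp14, Parp9, Tap2, Nlrc5 and Rtp4. The ISRE was searched as GAAANNGAAA and the GAS as TTCNNNGAA, on both strands. An ISRE match was present in 18 of the 35 genes (51.4%), against 1079 of 27025 genes with a window (3.99%), and a GAS match in 10 (28.6%), against 9.55%. In Bst2 and Ifitm3 a match of 1 motif overlapped a match of the other. By role, the ISRE letters were found in 2 of 3 sensors, 1 of 4 transcription factors, 9 of 15 effectors, 5 of 5 GTPases, 0 of 1 gene of the PARP group and 1 of 7 genes of MHC class I presentation. Of the genes that fell by the adjusted p-value alone 8 of 13 had them, of those that rose 0 of 4, and of the remaining genes 10 of 18. A match describes letters in a window and was not tested as a binding site.

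The stretches printed here run 5′ to 3′ on the strand of the gene, in lower case with the ISRE letters of either strand in capitals. They come from genes that fell, Isg15 (chr4:156200845-156200926, minus strand), Ifit1 (chr19:34640755-34640843, plus strand), Ifit3 (chr19:34583343-34583446, plus strand), Stat2 (chr10:128270248-128270315, plus strand) and Gbp3 (chr3:142559969-142560043, plus strand), and from genes that did not pass the test, Rsad2 (chr12:26456533-26456602, minus strand), Bst2 (chr8:71537557-71537632, minus strand) and B2m (chr2:122147518-122147587, plus strand). Set side by side, they show that genes with such letters close to the start were found on both sides of the threshold. The first base of the match lay 78, 72 and 66 bases before the start in Isg15, where 3 matches follow each other. It lay at 104 and 85 bases in Ifit1, 156 and 122 in Ifit3, 222 in Stat2, 45 and 39 in Gbp3, 120 in Rsad2, 130 and 124 in Bst2 and 139 in B2m.
Isg15: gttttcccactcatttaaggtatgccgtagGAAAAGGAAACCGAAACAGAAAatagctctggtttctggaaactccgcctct
Ifit1: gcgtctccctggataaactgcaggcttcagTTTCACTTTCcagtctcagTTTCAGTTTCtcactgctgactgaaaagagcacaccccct
Ifit3: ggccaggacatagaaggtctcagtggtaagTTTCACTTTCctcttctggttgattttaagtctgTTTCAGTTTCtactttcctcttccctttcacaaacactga
Stat2: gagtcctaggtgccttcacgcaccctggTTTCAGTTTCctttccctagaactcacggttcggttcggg
Gbp3: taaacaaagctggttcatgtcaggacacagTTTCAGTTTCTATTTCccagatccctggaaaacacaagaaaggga
Rsad2: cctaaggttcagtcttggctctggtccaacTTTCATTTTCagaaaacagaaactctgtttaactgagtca
Bst2: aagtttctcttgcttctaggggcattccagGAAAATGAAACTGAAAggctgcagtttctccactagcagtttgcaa
B2m: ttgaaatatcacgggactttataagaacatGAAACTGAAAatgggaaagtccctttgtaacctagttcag

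The sensors of cytoplasmic RNA and their regulators comprised 4 genes, with 1 called lower and 0 called higher (5.38 and 3.32% of all tested genes). By the adjusted p-value alone 1 fell and 1 rose (11.5 and 7.67% of all tested genes). Their median log2 fold change was -0.06, between -0.09 and -0.02 with cultures left out. Ddx58 encodes RIG-I, which binds short double-stranded RNA, and was measured at 91.2, 87.8 and 46.0 CPM in the vehicle cultures and 89.1, 85.4 and 45.4 CPM in the treated cultures. Each treated culture lay close to its vehicle partner, and both cultures numbered 3 were low (log2 fold change -0.03, standard error 0.06, edgeR adjusted p 0.777). Ifih1, the sensor of long double-stranded RNA, had a log2 fold change of -0.08 (standard error 0.08, edgeR adjusted p 0.528), which ranged from -0.14 to -0.02 with cultures left out. Dhx58 encodes LGP2, a helicase that tunes both sensors and lacks their signalling domains, and was at 6.97, 6.87 and 4.39 CPM with vehicle and 5.09, 4.96 and 2.46 CPM with HC-HA/PTX3. Each pair was lower after treatment, although vehicle replicate 3 lay below treated replicates 1 and 2, so the groups overlapped. Dhx58 fell by 0.57 on the log2 scale (standard error 0.14, edgeR adjusted p 0.0204). This call was lost when a single culture was left out, namely vehicle replicate 1, 2 or 3 or HC-HA/PTX3 replicate 1 or 3, with adjusted p-values of 0.0809, 0.0693, 0.0734, 0.0828 and 0.0870 in that order. Trim25, a ubiquitin ligase that activates RIG-I, was at 79.9, 79.3 and 61.6 CPM in the vehicle and 102, 87.2 and 98.96 CPM in the treated cultures. Every treated culture lay above every vehicle culture, a separation in this direction found in 9.44% of all tested genes and in no other of the 45. Trim25 rose by 0.39 (standard error 0.09, edgeR adjusted p 0.0165), short of the fold threshold. Its value was 0.24 with an adjusted p-value of 0.107 without vehicle replicate 3, and 0.26 with 0.0862 when HC-HA/PTX3 replicate 3 was left out. It passed both thresholds when either culture numbered 2 was left out, vehicle (0.51, edgeR adjusted p 0.0250) or HC-HA/PTX3 (0.51, 0.00159).

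Among the 5 transcription factors and controls of interferon signalling, 4 fell by the adjusted p-value alone (11.5% of all tested genes). Of these, 2 were called lower, Stat2 and Usp18 (5.38% of all tested genes). The median log2 fold change of the 5 genes was -0.50. Stat2, a subunit of ISGF3, was the most abundant of them per length, at 20.9 CPM per kilobase of exon in the vehicle cultures. Its level was 152, 134 and 85.6 CPM with vehicle and 98.2, 101 and 61.7 CPM with HC-HA/PTX3. All pairs were lower after treatment, and the groups overlapped because vehicle replicate 3 lay below treated replicates 1 and 2. Stat2 fell by 0.50 (standard error 0.07, edgeR adjusted p 0.00128), a value at the fold threshold itself. It stayed under an adjusted p-value of 0.05 in all 14 settings with the block, and missed the fold threshold in 6, among them the fits lacking vehicle replicate 1 (-0.43) or HC-HA/PTX3 replicate 1 (-0.43). Irf9, the DNA-binding subunit of ISGF3, was measured at 46.3, 43.0 and 39.0 CPM in the vehicle and 34.4, 34.4 and 27.3 CPM in the treated cultures. Every treated culture lay below every vehicle culture, as in 8.57% of all tested genes and in no other of the 45. Irf9 fell by 0.42 (standard error 0.08, edgeR adjusted p 0.00483). Usp18 encodes the protease that removes ISG15 from proteins and dampens the type I receptor. It was at 15.7, 15.4 and 6.27 CPM with vehicle and 12.0, 9.89 and 4.04 CPM with HC-HA/PTX3. Both cultures numbered 3 were lowest and all pairs were lower after treatment, with overlapping groups. Usp18 fell by 0.55 (standard error 0.11, edgeR adjusted p 0.00878). Without vehicle replicate 2 its adjusted p-value was 0.0665, and without HC-HA/PTX3 replicate 3 its log2 fold change of -0.50 no longer passed the fold threshold. Irf7, the main inducer of interferon alpha genes, fell by 0.50 (standard error 0.10, edgeR adjusted p 0.00938) and lay just short of the fold threshold. It passed that threshold when vehicle replicate 1 (-0.57) or HC-HA/PTX3 replicate 1 (-0.57) was left out, while its adjusted p-value was 0.0665 without vehicle replicate 2. Irf1, an activator of antiviral and MHC class I genes, had a log2 fold change of -0.17 (standard error 0.10, edgeR adjusted p 0.252).

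The antiviral effectors were the largest group, with 19 genes and a median log2 fold change of -0.32, which was negative under each scaling tried. By the adjusted p-value alone 9 fell and 1 rose (11.5 and 7.67% of all tested genes). Of the 9, 4 were called lower (5.38% of all tested genes). Isg15, a ubiquitin-like protein that is attached to viral and host proteins, was at 18.9, 16.1 and 2.75 CPM in the vehicle and 11.1, 9.42 and 1.27 CPM in the treated cultures. Both cultures numbered 3 were far below the others, and within every pair the treated culture was lower, so that the groups overlapped only through vehicle replicate 3. Isg15 fell by 0.84 (standard error 0.12, edgeR adjusted p 0.00179). Ifit1, which binds RNA without the cap methylation of host transcripts, was measured at 142, 106 and 51.6 CPM with vehicle and 81.2, 63.4 and 32.0 CPM with HC-HA/PTX3. Each pair went down, and vehicle replicate 3 again lay within the treated range. Ifit1 fell by 0.74 (standard error 0.06, edgeR adjusted p 0.000282), with log2 fold changes from -0.77 to -0.71 when cultures were left out. Rtp4, an interferon-induced transmembrane chaperone, was at 32.4, 27.2 and 8.41 CPM in the vehicle and 22.4, 15.7 and 5.66 CPM in the treated cultures. In each pair the treated culture was lower, with overlap through vehicle replicate 3. Rtp4 fell by 0.63 (standard error 0.10, edgeR adjusted p 0.00239). Isg15, Ifit1 and Rtp4 were called in all 14 settings with the block, with adjusted p-values of at most 0.0193, 0.00538 and 0.0294. Oas2, an oligoadenylate synthetase that activates RNase L, was rare at 2.90, 3.58 and 0.857 CPM with vehicle and 1.35, 1.93 and 0.355 CPM with HC-HA/PTX3. Each treated culture was below its partner, with overlapping groups. Oas2 fell by 1.05 (standard error 0.21, edgeR adjusted p 0.00699), and its adjusted p-value was 0.0564 and 0.0564 when vehicle or HC-HA/PTX3 replicate 1 was left out.

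Per length, Ifitm3 was the most abundant effector, at 139 CPM per kilobase in the vehicle cultures, followed by Ifitm2 at 68.2. Both encode membrane proteins that hinder the fusion of viruses with endosomes. Ifitm3 was at 131, 117 and 35.4 CPM with vehicle and 109, 92.7 and 27.7 CPM with HC-HA/PTX3. Its difference between replicate 3 and the rest exceeded that between treatments, and the groups overlapped. Ifitm3 fell by 0.32 (standard error 0.06, edgeR adjusted p 0.00741), short of the fold threshold, and its adjusted p-value was 0.0574 without vehicle replicate 2. Ifitm2 was at 47.7, 54.0 and 32.4 CPM in the vehicle and 42.1, 38.6 and 18.1 CPM in the treated cultures. All pairs were lower, with overlapping groups, and the fall of 0.50 (standard error 0.11, edgeR adjusted p 0.0123) lay just short of the fold threshold. The value varied with the pairs in the fit. It was -0.66 and -0.66 when vehicle or HC-HA/PTX3 replicate 1 was left out, and -0.34 and -0.32 when vehicle or HC-HA/PTX3 replicate 3 was. The last 2 values had adjusted p-values of 0.0525 and 0.0643, and without vehicle replicate 2 it was 0.0811. Among the fits with cultures left out, Ifitm2 was called in 3, without vehicle replicate 1, HC-HA/PTX3 replicate 1 or HC-HA/PTX3 replicate 2 (-0.51 in the last). With all cultures it was called under the filter of 1 count in all (-0.51) and by DESeq2 with the block (-0.51). Oasl2, Ifit3 and Xaf1 also fell by the adjusted p-value alone, with log2 fold changes of -0.50, -0.48 and -0.46 and edgeR adjusted p-values of 0.00472, 0.00370 and 0.00664. Oasl2 lay at the fold threshold and moved between -0.62 without vehicle replicate 3 and -0.35 without vehicle replicate 1, and was called in 5 of the 7 fits with cultures left out. Ifit3 was called without vehicle replicate 1 or HC-HA/PTX3 replicate 1 (-0.53 in each), and Xaf1 without vehicle replicate 2 or HC-HA/PTX3 replicate 2 (-0.54 in each). Without vehicle replicate 1 or HC-HA/PTX3 replicate 1, Xaf1 had adjusted p-values of 0.0504 and 0.0522.

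Ifi35, a leucine zipper protein induced by interferons, was the effector that rose, from 22.5, 25.4 and 17.3 CPM with vehicle to 28.0, 30.9 and 22.8 CPM with HC-HA/PTX3. The treated culture was the higher one in each pair and the groups overlapped. Its log2 fold change was 0.33 (standard error 0.08, edgeR adjusted p 0.0195), and leaving out any single culture moved the adjusted p-value past 0.05, to between 0.0584 (HC-HA/PTX3 replicate 2) and 0.1003 (vehicle replicate 3). The remaining 9 effectors did not pass the test. Their log2 fold changes ranged from -0.46 for Oasl1 to 0.51 for Rsad2, which encodes viperin, an enzyme that makes a chain-terminating nucleotide. Rsad2 was at 12.2, 11.2 and 5.30 CPM with vehicle and 17.3, 10.63 and 11.6 CPM with HC-HA/PTX3. It was higher after treatment in pairs 1 and 3 and lower in pair 2, and the groups overlapped (standard error 0.19, edgeR adjusted p 0.0789). Without vehicle replicate 2 or HC-HA/PTX3 replicate 2, Rsad2 was called higher, with log2 fold changes of 0.80 and 0.80. Without vehicle or HC-HA/PTX3 replicate 3 the values were 0.22 and 0.24, with adjusted p-values of 0.390 and 0.357. Oasl1 varied as widely, from -0.73 without vehicle replicate 1 to -0.12 without HC-HA/PTX3 replicate 3. The others were Ifit2 (-0.16), Ifi44 (-0.23), the dynamin-like Mx1 (-0.25) and Mx2 (-0.20), Oas1a (0.06), Bst2, the tether of budding virions (-0.14), and Eif2ak2, the RNA-activated kinase PKR (-0.03). With cultures left out, these values ranged from -0.23 to -0.06 for Ifit2, -0.33 to -0.11 for Ifi44, -0.41 to -0.09 for Mx1 and -0.20 to -0.03 for Bst2. Their adjusted p-values in edgeR lay between 0.197 for Ifit2 and 0.841 for Oas1a. Mx1, with 188 counts over all cultures, had the lowest level per length of the 45 genes, at 0.220 CPM per kilobase in the vehicle cultures. With a standard error of 0.28, its difference was hardly measurable.

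**Figure D3:**
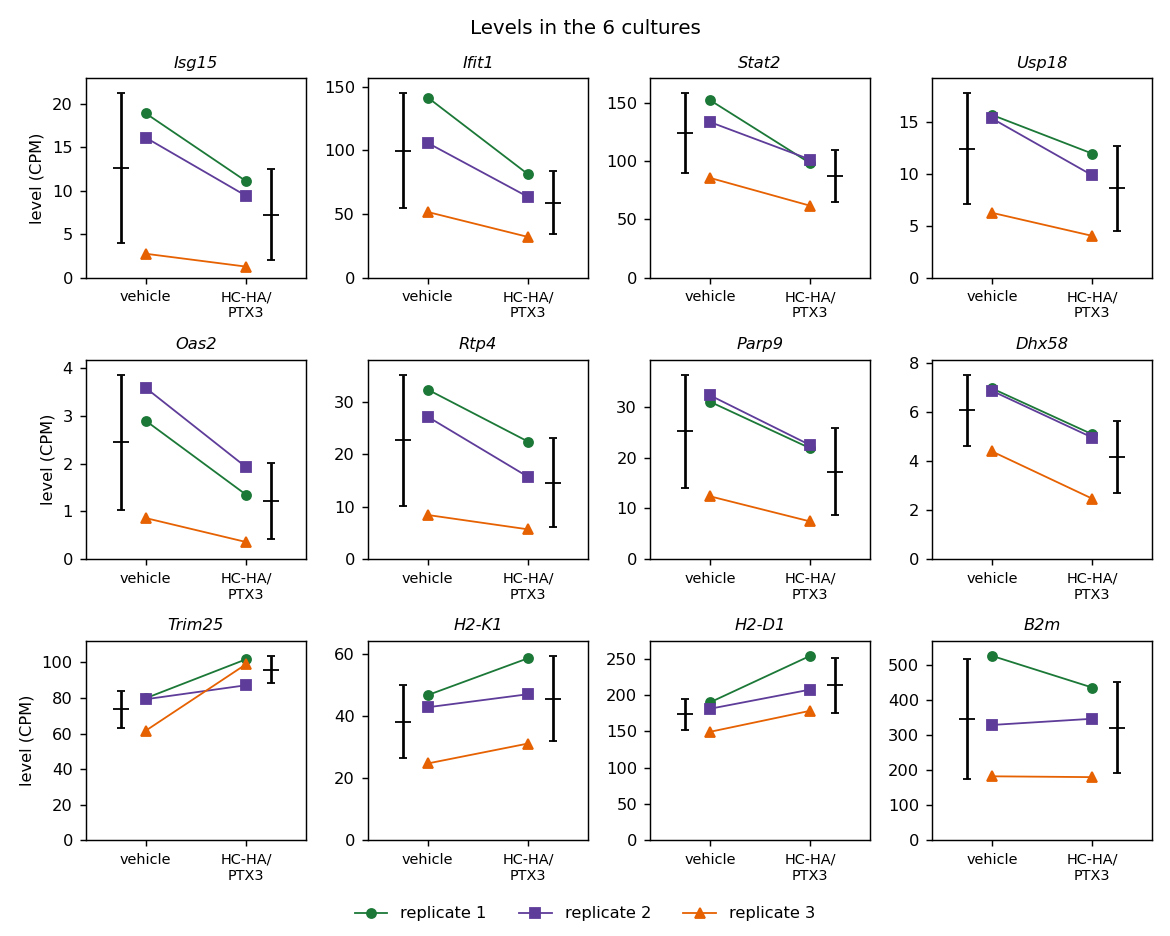
Level in CPM, on axes that start at 0, of the 8 called genes and of Trim25, H2-K1, H2-D1 and B2m, with lines joining the vehicle and HC-HA/PTX3 cultures of the same replicate number and black bars for the mean and SD of each group (n = 3). Lines of the 8 called genes slope down in all 3 pairs, those of Trim25, H2-K1 and H2-D1 slope up, and replicate 3 is the lowest culture of each group except for Trim25 with HC-HA/PTX3.

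The interferon-induced GTPases, which act on the membranes of vacuoles that hold pathogens, comprised 5 genes with 0 called in either direction by edgeR. Over all tested genes 5.38% were called lower and 3.32% higher. By the adjusted p-value alone 2 fell (11.5% of all tested genes), and 2 were lower at an unadjusted p-value under 0.05 (18.7%). The median log2 fold change of the 5 genes was -0.13. This median varied with the pairs in the fit, with -0.27 without vehicle replicate 3 and values of -0.00011 and 0.00016 without vehicle or HC-HA/PTX3 replicate 2. Gbp3, a guanylate-binding protein, was at 41.1, 23.7 and 6.30 CPM with vehicle and 28.6, 19.5 and 4.52 CPM with HC-HA/PTX3. Each treated culture was below its partner, and the range across replicate numbers in either group was far wider than the difference within pairs. Gbp3 fell by 0.43 (standard error 0.10, edgeR adjusted p 0.0125). It had adjusted p-values of 0.129 and 0.123 when vehicle or HC-HA/PTX3 replicate 1 was left out, and was called without vehicle replicate 2 or HC-HA/PTX3 replicate 2 (-0.51 in each). Gbp7 was at 50.6, 46.3 and 20.02 CPM in the vehicle and 34.2, 33.7 and 17.4 CPM in the treated cultures. All pairs were lower after treatment, and the groups overlapped. Gbp7 fell by 0.41 (standard error 0.09, edgeR adjusted p 0.0105). Its adjusted p-value was 0.0815, 0.0802 and 0.0827 without vehicle replicate 1, vehicle replicate 2 and HC-HA/PTX3 replicate 1, and it was called without vehicle replicate 3 (-0.52). Gbp2 was measured at 27.6, 21.3 and 4.14 CPM with vehicle and 22.1, 18.4 and 5.61 CPM with HC-HA/PTX3. It was lower after treatment in pairs 1 and 2 and higher in pair 3 (log2 fold change -0.07, standard error 0.14, edgeR adjusted p 0.755). Igtp, an immunity-related GTPase and the most abundant of the 5 per length, at 9.59 CPM per kilobase, was at 21.7, 21.4 and 15.1 CPM in the vehicle and 26.4, 17.4 and 19.7 CPM in the treated cultures. Pairs 1 and 3 were higher and pair 2 lower after treatment (log2 fold change 0.13, standard error 0.13, edgeR adjusted p 0.533). Irgm1, a regulator of that family, had a log2 fold change of -0.13 (standard error 0.11, edgeR adjusted p 0.447).

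PARP9 and PARP14 belong to the family of ADP-ribosyltransferases, and PARP9 forms a complex with the ubiquitin ligase DTX3L. All 3 genes fell by the adjusted p-value alone (11.5% of all tested genes), with a median log2 fold change of -0.45. Of these, Parp9 was called lower (5.38% of all tested genes). Parp9 was at 31.1, 32.4 and 12.4 CPM with vehicle and 21.9, 22.5 and 7.41 CPM with HC-HA/PTX3. All pairs were lower after treatment, and the groups overlapped through vehicle replicate 3. Parp9 fell by 0.58 (standard error 0.09, edgeR adjusted p 0.00266). Dtx3l was at 64.2, 60.4 and 38.4 CPM in the vehicle and 42.6, 46.4 and 29.4 CPM in the treated cultures. The treated culture was lower in every pair, and the difference between replicate numbers was smaller than for Parp9. Dtx3l fell by 0.45 (standard error 0.08, edgeR adjusted p 0.00324) and was called without HC-HA/PTX3 replicate 2 (-0.50). Parp14 was measured at 119, 97.4 and 27.7 CPM with vehicle and 97.6, 84.0 and 19.96 CPM with HC-HA/PTX3. Cultures numbered 3 held far less than the others, and the groups overlapped. Parp14 fell by 0.32 (standard error 0.07, edgeR adjusted p 0.0131). Its adjusted p-value was 0.0510, 0.0783, 0.0555 and 0.109 without vehicle replicates 1 and 3 and HC-HA/PTX3 replicates 1 and 3.

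MHC class I presentation differed from the effectors in direction of its median, 0.07 over 9 genes, which was positive under each scaling tried while that of the effectors was negative. With cultures left out it lay between 0.03 and 0.10, and that of the effectors between -0.34 and -0.31. The difference between these lists was not tested. None of the 9 was called by edgeR, where 5.38% of all tested genes were called lower and 3.32% higher. By the adjusted p-value alone 2 rose and 0 fell (7.67 and 11.5% of all tested genes). At an unadjusted p-value under 0.05, 3 were higher and 0 lower (14.5 and 18.7% of all tested genes). B2m, the invariant light chain of MHC class I, was the most abundant of the 45 genes per length, at 401 CPM per kilobase in the vehicle cultures. Its level was 525, 328 and 182 CPM with vehicle and 435, 346 and 179.8 CPM with HC-HA/PTX3. The level differed mainly between replicate numbers, and the treated culture was lower in pairs 1 and 3 and higher in pair 2 (log2 fold change -0.07, standard error 0.08, edgeR adjusted p 0.546). H2-D1, a classical heavy chain, was at 189.8, 181 and 149 CPM in the vehicle and 254, 208 and 178 CPM in the treated cultures. The treated culture was higher in every pair, with overlapping groups. H2-D1 rose by 0.29 (standard error 0.07, edgeR adjusted p 0.0131), with adjusted p-values of 0.0567, 0.0504 and 0.0636 without vehicle replicate 1, vehicle replicate 2 and HC-HA/PTX3 replicate 1. H2-K1, the other classical heavy chain listed, rose from 46.7, 42.8 and 24.7 to 58.5, 47.0 and 31.1 CPM, higher in all 3 pairs, by 0.26 (standard error 0.08, edgeR adjusted p 0.0363). It passed the adjusted p-value in 1 of the 7 fits with cultures left out, the one without HC-HA/PTX3 replicate 2, and had values from 0.0658 (without vehicle replicate 2) to 0.171 (without vehicle replicate 3) in the others, with DESeq2 at 0.0690. Psmb9, a subunit of the immunoproteasome, was rare at 2.52, 2.40 and 0.696 CPM with vehicle and 1.86, 1.27 and 0.762 CPM with HC-HA/PTX3. Pairs 1 and 2 were lower and pair 3 was higher after treatment (log2 fold change -0.46, standard error 0.24, edgeR adjusted p 0.208), and the fold change lay between -0.67 and -0.22 with cultures left out. The peptide transporter genes Tap1 and Tap2, the chaperone Tapbp, the immunoproteasome subunit Psmb8 and the transactivator Nlrc5 had log2 fold changes of 0.21, 0.07, 0.17, -0.16 and -0.05, with adjusted p-values from 0.103 for Tapbp to 0.795 for Nlrc5 in edgeR. With cultures left out, Tap1 ranged from 0.11 to 0.38 and Tap2 from 0.03 to 0.10. In summed levels, MHC class I presentation stood at 889, 684 and 437 CPM with vehicle and 889, 731 and 481 CPM with HC-HA/PTX3, and the effectors at 929, 768 and 361 and 694, 596 and 313 CPM. Within pairs 1, 2 and 3 the treated sum was 100.03, 107 and 110.03% of vehicle for MHC class I presentation and 74.7, 77.7 and 86.7% for the effectors.

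**Figure D4:**
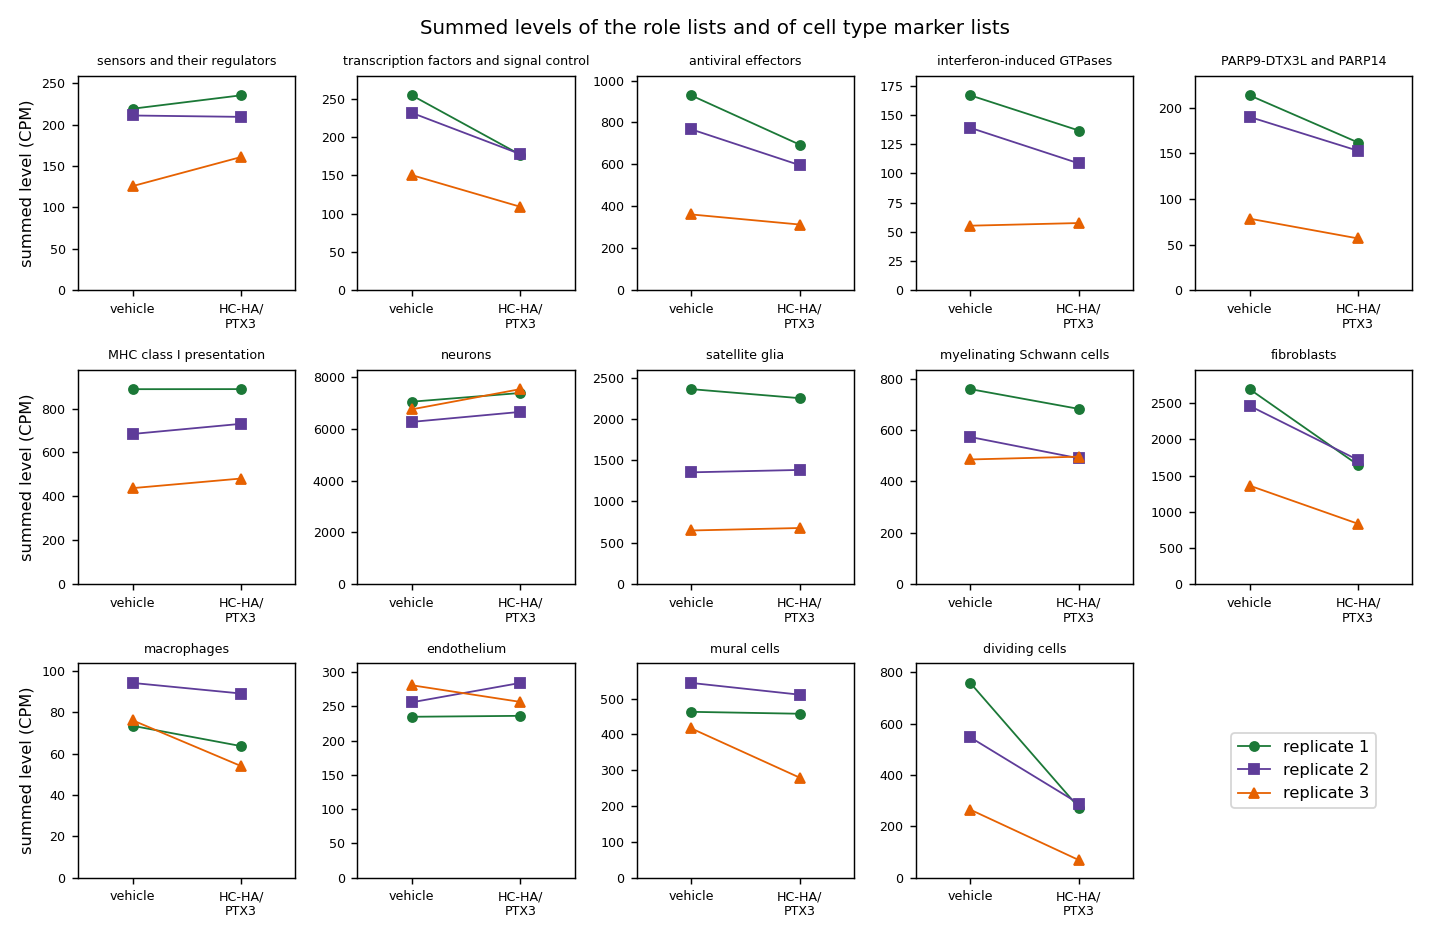
Summed level in CPM of each role and of 8 cell type marker lists in the 6 cultures, on axes that start at 0, with vehicle and HC-HA/PTX3 cultures of the same number joined. The sums of the effectors, the transcription factors and the PARP group are lower in the treated culture of each pair, and that of MHC class I presentation is not. Fibroblasts, macrophages, mural cells and dividing cells are also lower in each treated culture than in its partner. Replicate 3 is the lowest of both groups for all 6 roles, satellite glia, fibroblasts, mural cells and dividing cells.

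Many of the 45 genes neighbour each other. In GRCm38.p6 coordinates, 27 of them lay in 9 groups with gaps under 2000000 bases, and 18 lay alone. The MHC genes Tapbp, H2-K1, Psmb9, Tap1, Psmb8, Tap2 and H2-D1 shared chr17:33919478-35267497, where 2 rose by the adjusted p-value alone and 0 fell. Gbp7, Gbp3 and Gbp2 lay at chr3:142530336-142638008, and 2 of the 3 fell. Ifit2, Ifit3 and Ifit1 lay at chr19:34550550-34650009, where Ifit1 and Ifit3 fell while Ifit2, between 29.6 and 66.7 CPM, did not pass. Parp14, Dtx3l and Parp9 lay at chr16:35831892-35972621, and Ifitm2, Ifitm3 and Irf7 at chr7:140954837-141266499, and all 6 fell by the adjusted p-value alone. The other groups were pairs with mixed results. Dhx58 fell and Ifi35 rose, Oas2 fell and Oas1a did not pass, Oasl2 fell and Oasl1 did not pass, and neither Mx1 nor Mx2 passed. By the same measure 19 of the 45 genes fell, against 11.5% of all tested genes, and 7.67% of all tested genes rose. Outside such groups or in pairs lay the called genes Isg15 (chr4:156199424-156200818), Stat2 (chr10:128270498-128292853), Usp18 (chr6:121245906-121270917), Rtp4 (chr16:23520219-23614222), Dhx58 (chr11:100694884-100704271) and Oas2 (chr5:120730333-120749886).

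Some of these levels are uncertain because reads can fit more than 1 gene, and the strand setting of the counting was not stated. In the annotation, 32 of the 45 genes shared no stretch of 100 bases, the read length, with another gene. At least 10% of such stretches were shared for 5 genes, namely Oas1a (40.9%, with Oas1g), Ifitm2 (34.9%, with Gm45717), Ifit3 (31.7%, with Ifit3b), Rtp4 (11.2%, with Gm45338) and Gbp7 (10.2%, with Gm43802). Exons of other genes on either strand covered 29.0% of Tapbp, 18.5% of Tap2, 16.8% of Ifi35 and 14.7% of Psmb8. For these 4 the gene with the largest overlap lay on the opposite strand. Such exons also covered 40.9% of Ifitm2, 13.9% of Rtp4 and 11.3% of Gbp7, with the largest overlap on the same strand. Parp9 and Dtx3l overlapped each other by 9.4 and 8.0% of their exon bases. Of the called genes, Rtp4 and Parp9 are thus less certain than Isg15, Stat2 and Oas2, for which neither kind of sharing was found.

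Other genes of the pathway were taken from hand-made lists of 115 genes, of which 103 were tested. Among these, 7 were called lower and 4 higher, and 15 fell and 7 rose by the adjusted p-value alone. Over all tested genes these shares were 5.38, 3.32, 11.5 and 7.67%, so the counts for the 103 genes lay near those of all genes. Their median log2 fold change was -0.11, against -0.01 over all tested genes. Without the block 0 of the 103 were called by edgeR and 7 had an unadjusted p-value under 0.05, against 11.4% of all tested genes. Interferon genes themselves were near absent. The 10 ligands had 10 counts in all 6 libraries together, none was tested, and Ifna1, Ifna4, Ifna5, Ifnl2 and Ifnl3 had 0 counts in every culture, which allows a level of up to 0.0808 CPM. The most abundant, Ifna2, had 5 counts, and Ifnb1 and Ifng had 1 count each.

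The list of receptors, JAK kinases, STAT factors and their inhibitors is not complete, and its 16 genes were all tested. None was called by edgeR in either direction, where 5.38% of all tested genes were called lower and 3.32% higher. At an unadjusted p-value under 0.05, 4 were lower and 1 higher, against 18.7 and 14.5% of all tested genes. The median was -0.07, between -0.11 and -0.05 with cultures left out. Ifngr2, a chain of the receptor for interferon gamma, was at 54.3, 61.6 and 66.6 CPM with vehicle and 50.4, 50.4 and 49.5 CPM with HC-HA/PTX3. The treated cultures lay below the vehicle cultures without overlap, and Ifngr2 fell by 0.28 (standard error 0.08, edgeR adjusted p 0.0336), short of the fold threshold. Stat3, the most abundant gene of the list, had a log2 fold change of -0.08 (standard error 0.06, edgeR adjusted p 0.391).

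Of 19 further genes of nucleic acid sensing, 18 were tested (Tlr9 was not), and 4 were called lower and 1 higher (5.38 and 3.32% of all tested genes), with a median of -0.07, between -0.14 and -0.04 with cultures left out. Zbp1, a sensor of Z-form nucleic acids, was lower after treatment in all pairs, with overlapping groups, and fell by 0.83 (standard error 0.18, edgeR adjusted p 0.0101). The DNA-binding PYHIN family genes Ifi203 and Ifi204 fell by 0.78 and 0.70 (edgeR adjusted p 0.00246 and 0.00418). Mb21d1, which encodes the DNA sensor cGAS, was at 4.42, 4.77 and 4.46 CPM in the vehicle and 2.94, 3.77 and 2.74 CPM in the treated cultures. Every treated culture lay below every vehicle culture, and Mb21d1 fell by 0.54 (standard error 0.15, edgeR adjusted p 0.0344). Aim2, the sensor of DNA in an inflammasome, went the other way, from 1.87, 1.65 and 1.79 CPM to 2.45, 2.56 and 2.95 CPM. All treated cultures lay above all vehicle cultures, and Aim2 rose by 0.58 (standard error 0.18, edgeR adjusted p 0.0474). Tbk1, a kinase of nucleic acid sensing and the most abundant gene of the list, had a log2 fold change of 0.17 (standard error 0.06, edgeR adjusted p 0.0968).

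Another 46 interferon-stimulated genes, 45 of them tested (Gbp10 was not), had a median of -0.23, with 3 called lower and 1 higher, and 9 that fell and 2 that rose by the adjusted p-value alone. The calls lay near the shares of all tested genes (5.38% lower, 3.32% higher), and the falls by the adjusted p-value alone stood against 11.5%. Slfn9, a Schlafen family gene, was at 49.9, 37.7 and 17.4 CPM with vehicle and 20.6, 23.1 and 7.87 CPM with HC-HA/PTX3. All pairs were lower after treatment, the groups overlapped through vehicle replicate 3, and Slfn9 fell by 1.04 (standard error 0.11, edgeR adjusted p 0.000682). Cmpk2, a mitochondrial nucleotide kinase beside Rsad2 in the genome, fell by 0.67 (standard error 0.11, edgeR adjusted p 0.00273), and Iigp1, an immunity-related GTPase, by 0.52 (standard error 0.15, edgeR adjusted p 0.0369). Isg20, an exonuclease that degrades viral RNA, was measured at 2.35, 2.86 and 3.79 CPM in the vehicle and 4.36, 4.17 and 6.63 CPM in the treated cultures. It was higher in every treated culture than in every vehicle culture and rose by 0.75 (standard error 0.15, edgeR adjusted p 0.00817). Znfx1, a helicase and the most abundant gene of the list, had a log2 fold change of 0.10 (standard error 0.06, edgeR adjusted p 0.280).

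In the 16 other genes of MHC class I presentation, 2 were called higher and 0 lower by edgeR, against 3.32% higher and 5.38% lower over all tested genes. At an unadjusted p-value under 0.05 in edgeR, 3 were higher and 2 lower, against 14.5 and 18.7% of all tested genes. Their median was 0.02, between 0.003 and 0.04 with cultures left out. H2-T23, which encodes the nonclassical molecule Qa-1, was at 9.41, 9.52 and 6.34 CPM with vehicle and 21.4, 16.3 and 10.5 CPM with HC-HA/PTX3. The groups did not overlap, and H2-T23 rose by 0.90 (standard error 0.12, edgeR adjusted p 0.00136). Cd1d1, an MHC class I-like molecule that presents lipids to natural killer T cells, was at 3.42, 3.40 and 2.96 CPM in the vehicle and 6.98, 6.54 and 6.75 CPM in the treated cultures. The groups did not overlap and the replicate numbers hardly differed, and Cd1d1 rose by 1.05 (standard error 0.14, edgeR adjusted p 0.00118). Calr, a chaperone of peptide loading and the most abundant of the 16, had a log2 fold change of -0.21 (standard error 0.07, edgeR adjusted p 0.0606). The 8 genes of MHC class II presentation had 0 calls by edgeR and 0 genes with an unadjusted p-value under 0.05. Their median was 0.07, between 0.02 and 0.29 with cultures left out, and H2-DMa, the most abundant, had a log2 fold change of -0.01 (standard error 0.09, edgeR adjusted p 0.954). Sharing of reads was not measured for these added lists, some of which (Slfn9, Ifi203, Ifi204, H2-T23) belong to families with close copies.

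**Figure D5:**
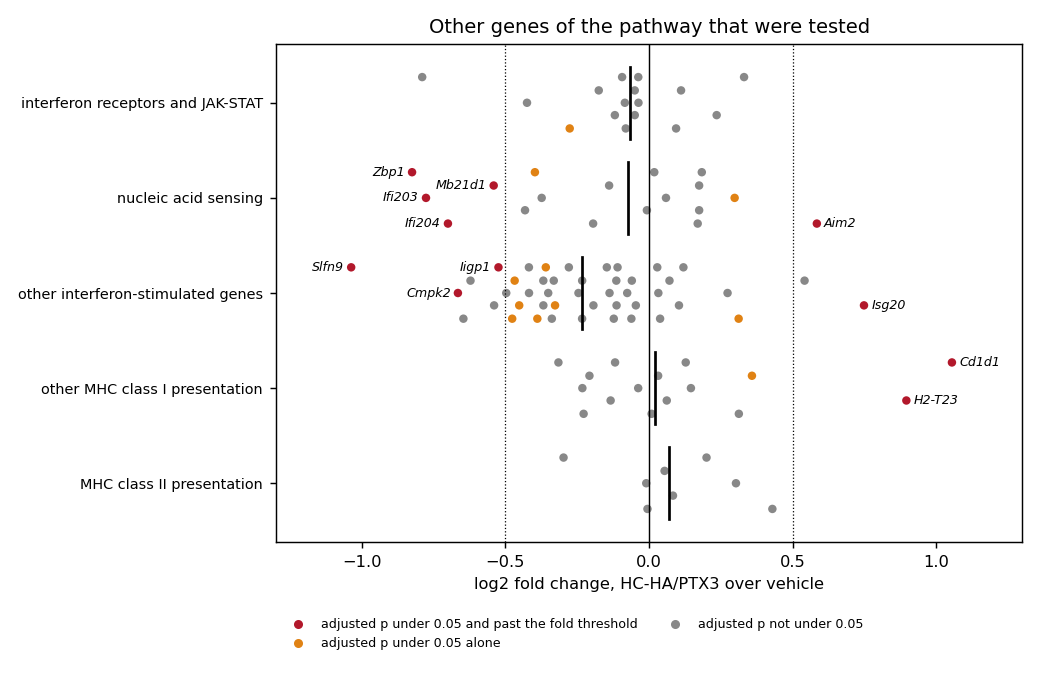
Log2 fold change, HC-HA/PTX3 over vehicle, of each tested gene of the added pathway lists, with called genes in red and named, genes that passed the adjusted p-value alone in orange, and a black line at the median of each list. The 7 called lower include Slfn9 and Zbp1, and the 4 called higher are Aim2, Isg20, H2-T23 and Cd1d1.

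Markers of the cell types that such cultures can hold were measured beside these genes, and their calls stand against 5.38% lower and 3.32% higher over all tested genes, with 18.7% lower and 14.5% higher at an unadjusted p-value under 0.05. The 10 neuronal markers summed to 7055, 6273 and 6759 CPM with vehicle and 7393, 6660.4 and 7542 CPM with HC-HA/PTX3, led by Tubb3. None was called by edgeR, and 4 were higher and 0 lower at an unadjusted p-value under 0.05. The 8 markers of satellite glia summed to 2363, 1353 and 648 CPM and 2253, 1382 and 678 CPM, led by Apoe. None was called (5 had an unadjusted p-value under 0.05), but all 8 passed the test of the replicate number. Replicate 3 held 34.9 and 37.3% of the mean glial sum of the other replicates, and so moved with the low interferon-stimulated genes of replicate 3. Kcnj10, a glial potassium channel, was at 218, 128 and 5.11 CPM with vehicle and 168, 95.2 and 4.70 CPM with HC-HA/PTX3. It was chosen after its values were seen. Myelinating Schwann cell markers summed to 760.4, 574 and 486 and 683, 490.2 and 497 CPM, led by Pmp22, over 4 genes that do not cover the cell type fully, with 0 called by edgeR and 2 with an unadjusted p-value under 0.05. Fibroblast markers summed to 2695, 2464 and 1360.4 and 1645, 1714 and 832 CPM, led by Thy1, a gene that neurons also express. Of the 7, 3 were called lower, with falls of 1.62 for Col1a1, 1.11 for Col1a2 and 0.96 for Col3a1. The other 4, Dcn, Lum, Pdgfra and Thy1, did not pass, with log2 fold changes from -0.31 for Lum to 0.03 for Thy1. Within pairs the treated fibroblast sum was 61.0, 69.6 and 61.1% of vehicle.

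Macrophage markers were rare, at sums of 73.4, 94.2 and 76.1 CPM with vehicle and 63.6, 89.0 and 54.0 CPM with HC-HA/PTX3 over 12 genes, led by Cd68, and within pairs the treated sum was 86.6, 94.6 and 70.9% of vehicle. The median log2 fold change was -0.44, between -0.56 and -0.16 with cultures left out, and 7 of the 12 were lower at an unadjusted p-value under 0.05 (18.7% of all tested genes). Of these, 3 were called lower, C1qa, C1qb and Tyrobp, with falls of 0.74, 0.82 and 0.67. The other 9 did not pass, with log2 fold changes from -0.65 for Adgre1 to 0.34 for Mrc1, and 6 of the 12 were lower in all pairs. At that unadjusted level Mrc1 alone was higher. The 8 markers of T cells, B cells and neutrophils summed to 4.57, 8.33 and 6.50 and 3.39, 5.99 and 6.96 CPM, mostly S100a9 and S100a8. Only 3 of the 8 were tested, with 0 called by edgeR and 1 with an unadjusted p-value under 0.05. Cd3e had 0 counts in HC-HA/PTX3 replicates 1 and 2, and Cd8a had 0 counts in 4 of the 6 cultures. Endothelial markers (6 genes, led by Cdh5) summed to 235, 256 and 281 and 236, 284 and 257 CPM, with 0 called and 0 at an unadjusted p-value under 0.05 in edgeR. Mural cell markers (5 genes, led by Rgs5) summed to 463, 544 and 417 and 458, 511 and 279 CPM, and 1 was called, Acta2, which fell by 1.03. Of the others, Cspg4 (-0.28) was lower and Kcnj8 (0.59) and Rgs5 (0.15) were higher at an unadjusted p-value under 0.05. The treated mural sum was 98.8, 94.0 and 67.0% of vehicle within pairs. All 6 markers of dividing cells were called lower, led by Mki67, and their sum was 759, 547 and 265 CPM with vehicle and 273, 289 and 68.7 CPM with HC-HA/PTX3. Mki67, Top2a, Ccna2, Ccnb1, Cdk1 and Pcna fell by 1.72, 1.68, 1.75, 1.44, 1.42 and 0.54. Beside the interferon-stimulated genes that fell, the dividing cell markers thus fell as a whole list, and 3 of 7 fibroblast and 3 of 12 macrophage markers were called lower. Several lists differed between replicate numbers as well. The test of the replicate number passed in 6 of 6 dividing cell, 6 of 7 fibroblast, 4 of 5 mural, 3 of 4 Schwann cell, 3 of 6 endothelial, 4 of 10 neuronal and 4 of 12 macrophage markers and in 2 of the 3 tested markers of T cells, B cells and neutrophils, against 33.8% of all tested genes. In vehicle and treated replicate 3 the sums stood at 40.6 and 24.5% of the mean of the other replicates for dividing cells, 52.7 and 49.5% for fibroblasts and 72.8 and 84.7% for Schwann cells. The part of these cell types in the result was not tested.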

How the data were processed

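Libraries came from 6 cultures of mouse DRG cells, 3 per group as labelled. Ribosomal RNA-depleted read pairs of 100 bases were aligned to mm10 by the authors, and featureCounts assigned them to genes. The authors deposited raw counts, without normalization. The methods name HISAT2 and the file headers STAR as the aligner, and the strand setting is not stated. Counts were analysed in R 4.3.3 with edgeR 4.0.16 (filterByExpr, TMM, glmQLFit and glmQLFTest, replicate number as block), and p-values were adjusted by Benjamini-Hochberg over 18277 genes. Alternatives were no block, filters of 1 count in all or 10 counts in every culture, upper-quartile and raw scaling, DESeq2 1.42.0, limma-voom (limma 3.58.1), ComBat-seq (sva 3.50.0) followed by limma, no fold-change threshold, and cultures left out. Log2 CPM used a prior count of 2. The standard errors are not an output of edgeR. They were worked out as the absolute log2 fold change divided by the square root of the quasi-likelihood F statistic. The scripts were tested on simulated data.

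The block rests on the replicate numbers of the labels. This was checked across the tested genes, where departures from the group mean correlated at 0.631, 0.536 and 0.774 for cultures with the same number and at -0.613 to 0.148 for the rest. The limit set for pairing was 0.1, which vehicle 2 with HC-HA/PTX3 1 (0.148) and vehicle 1 with HC-HA/PTX3 2 (0.104) also exceeded. The limit alone therefore does not single out the partners. Departures within a group sum to 0, so high values for some pairs force low ones for others. No libraries of a group were duplicates (chi-square per degree of freedom 34.2 to 120.2). Libraries held 37434266 to 54117547 counts, and whether depth or spread between cultures limited precision was not tested.

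Values in every culture were given for called genes and, in each role, for the 2 highest per kilobase and the 2 with the largest absolute fold change. Outside this rule, Ifi35, Rsad2 and H2-K1 were given in the same way after their values were seen. From the pathway and marker lists, called genes and the most abundant gene were named, and others, such as Ifngr2, Cd3e, Cd8a and Kcnj10, after their values were seen. The 45 genes and all lists were chosen with earlier results of these data known. Exon lengths and shared stretches came from the GENCODE M21 annotation of mm10, and positions and promoters from RefSeq, matched by symbol. Of the lists, 1 pathway gene and 1 marker gene were left out for a reason unrelated to their values, so list counts, medians and sums are without them. The 10 min arm was not analysed here.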

Additional observations from a re-analysis of the deposited data

How the results depend on the processing

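Without the replicate block, which removes the pairing of cultures, edgeR called 0 genes, 0 of the 45 and 0 of the pathway genes, against 1591, 8 and 11 with it. The block takes out differences between replicate numbers, whose test passed in 39 of the 45 genes. Without the fold threshold 3505 genes, 23 of the 45 (19 lower, 4 higher) and 22 pathway genes passed. Leaving out cultures gave 895 to 2010 calls in all, 6 to 15 among the 45 (6 to 13 lower, 0 to 2 higher) and 6 to 12 pathway genes, where each fit has fewer cultures. With the block, a fit without a single culture rests on the pairs that stay complete. The fits without the vehicle or the treated culture of the same number are thus not separate checks. The count of 15 came without HC-HA/PTX3 replicate 2, and the lowest overall counts without HC-HA/PTX3 replicate 1 (895) or vehicle replicate 1 (957). The fit without replicate 3 in both groups, chosen after seeing the data, called 6 of the 45, 5 of them among the original 8. Other filters, scalings and tools called 7 to 11 of the 45, all lower, and the median log2 fold change stayed between -0.27 and -0.20 in all alternatives, -0.25 without the block. The number of genes that differed between replicate numbers ranged from 34 to 42. Genes that did not pass the test changed sign in some settings, and the cause was not tested. Upper-quartile scaling gave 0.0013 for Ddx58 and 0.0021 for Eif2ak2. With cultures left out, log2 fold changes ranged from -0.12 to 0.25 for Oas1a, -0.16 to 0.047 for Eif2ak2, -0.0077 to 0.33 for Igtp, -0.23 to 0.021 for Irgm1, -0.27 to 0.084 for Gbp2, -0.16 to 0.030 for B2m and -0.14 to 0.064 for Nlrc5. Of calls in all genes, 61.8% were lower, against 55.8% with upper-quartile scaling, 51.4% with ComBat-seq and 71.6% with DESeq2, and 61.0 to 72.3% with cultures left out. Mx1, Oas2, Psmb9 and the interferon ligands were rare, and the effect of depth on them was not tested.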
